A study of Mus musculus with 34 samples.

Results

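The desmosome and plakin genes examined here are Dsc2, Dsc3, Dsg2, Dsg3, Pkp1, Pkp3, Jup, Dsp, Ppl and Evpl. A member was taken by its gene symbol, from probe sets that carry exactly 1 symbol. Each of the 10 genes had 1 such probe set, so no choice between probe sets arose, and all 10 lay above the array median often enough to be among the 12998 genes tested. RNA of wild-type CB6 mice was hybridised to Affymetrix gene arrays. Whole cornea had 3 arrays each at the embryonic days E14.5, E15.5 and E17.5, at the postnatal days P3, P7, P14 and P28, and at 2 months. Corneas of 6 months, 1 year, 18 months and 2 years had 2 arrays each. Epithelium of P28, freed with dispase, and stroma of P7, taken by laser capture, had 1 array each, and these ages follow the sample labels, since the design text names a single time point for the layers. The labels name no treatment and leave unsaid whether the arrays of an age stand for different animals. The spread that the p-values measure may therefore be technical.

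Desmosomes are spot-like junctions that hold neighbouring epithelial cells together and anchor their keratin filaments. The desmogleins and desmocollins, members of the cadherin family, cross the gap between the cells and bind each other there. Inside the cell their tails hold plakoglobin, the product of Jup, and the plakophilins, and desmoplakin, the product of Dsp, ties these to keratin. Periplakin and envoplakin, the products of Ppl and Evpl, are related plakins that lie at the cell border of stratified epithelia and take part in building the cornified envelope of the epidermis. In the cornea, desmosomes join the cells of the stratified epithelium that faces the tear film.

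The values are intensities on a linear scale as deposited, and differences between ages are on the scale of log2(value + 16), where 1 unit is a doubling for values well above the offset. A gene was said to have risen or fallen where limma gave an adjusted p under 0.05 with a difference of at least 1 log2 unit. On the 32 whole-cornea arrays the median intensity lay between 188.2 and 240.6. As a check of the tissue, the summed intensity of 8 corneal epithelium markers (among them Krt12, Krt5 and Aldh3a1) ran from 16160 to 59220 on the arrays from E15.5 on, against 4774 to 8594 at E14.5. That of 6 stroma markers, which include Kera and Lum, was 1824 to 9059 at E14.5, 28810 to 46620 on the arrays of E15.5 to P14 and 2039 to 20040 on those of P28 to 2 years. Krt12, the keratin that defines corneal epithelium, averaged 55.5 ± 7.32 (SD, n = 3) at E14.5. The epithelium sum weighs its strongest genes most, and its genes did not move alike. At E15.5 against E14.5, 6 of the 8 rose, with Krt12 at 6.69 log2 units, while Epcam gave 0.45 (adjusted p = 0.2 by limma). The sum is therefore no measure of the share of epithelium in a sample. Lens markers were high on 6 arrays, with sums of 60170 and 52950 on E14.5 replicates 2 and 3, 33570 on P14 replicate 2, 18700 on P28 replicate 2, 48730 on 2 months replicate 1 and 40070 on 6 months replicate 2. Skeletal muscle markers summed to 26360 and 22760 on E17.5 replicates 1 and 3, retina markers to 17480 on 6 months replicate 1, and blood markers to 22820 to 33180 on the 3 arrays of E14.5. A group of 7 probe sets without a symbol read at most 12.8 on all 14 arrays of P28 to 2 years and at least 1501 on all 18 arrays of E14.5 to P14, so the whole-cornea arrays formed 2 sets that part between P14 and P28.

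All 10 genes changed over the 12 ages by limma's F-test, with adjusted p from 1.5e-11 to 0.0012, where 40.6% of all genes tested did. For 8 of the 10, all but Dsc2 and Dsg2, every age mean from P28 on lay above every earlier one. The array sets part at the same place, and the share of all genes ordered this way was not counted. Among the 6 ages of E14.5 to P14, 9 of 10 changed, against 19.6% of all genes. Envoplakin was the exception, since its age means there spanned 0.79 log2 units, short of the threshold (adjusted p = 0.0015). Among the 6 ages of P28 to 2 years none of the 10 changed by limma (0 at an unadjusted p under 0.05, adjusted p from 0.27 to 0.98), against 6.77% of all genes. The lowest mean of each gene was that of E14.5. The highest mean fell at 2 years for Dsc2, Dsg3, Pkp1, Pkp3, Jup, Dsp and Ppl, at 18 months for Dsc3, at P28 for Evpl and at P7 for Dsg2. When the 12 ages were put in order of a gene's mean, 7 to 10 of the 11 neighbouring pairs had overlapping arrays, so that most neighbours in that order were not separated.

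**Figure D1:**
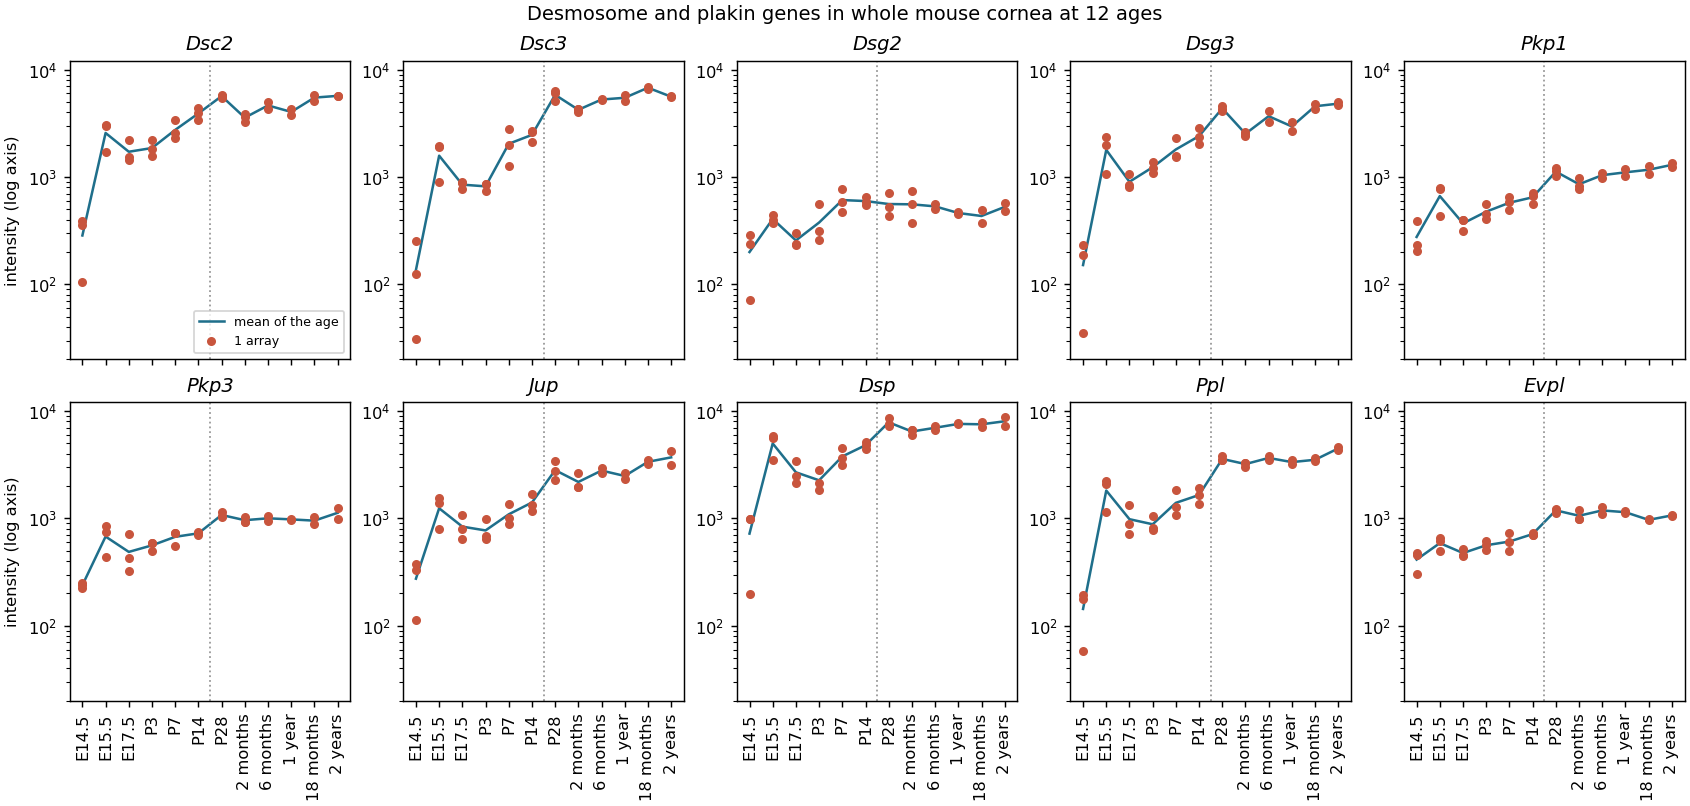
Intensity (log axis) of the 10 genes in whole cornea at 12 ages, with 1 point per array and a line through the age means. The dotted line parts the array sets of E14.5 to P14 and P28 to 2 years. The age means of Dsp lay between 721 and 8017, and those of Dsg2 between 200.1 and 609.8, each lowest at E14.5.

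Over the 11 steps between neighbouring ages the members were called 12 times, always as higher at the older age, and 9 of these calls fell between E14.5 and E15.5. At E15.5 against E14.5, 9 of 10 members rose and none fell, where 10.4% of all genes tested were called, 7.35% as higher and 3.1% as lower. The median difference of the members was 2.62 log2 units, beside 0.01 over all genes. For every member, each E15.5 array lay above each E14.5 array, while the arrays of these ages did not overlap in 47.4% of all genes, in either direction. In whole cornea a larger number of epithelial cells and more RNA per cell cannot be told apart.

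Among the adhesive molecules, Dsg3 and Dsc3 are the desmoglein and desmocollin typical of the lower layers of stratified epithelia. Dsg3 read 1060, 1971 and 2332 on the E15.5 arrays, against 186.3, 232.2 and 35.4 on the E14.5 arrays. It rose by 3.64 log2 units (SE 0.35, adjusted p = 3.2e-08 by limma). Dsc3 read 889.7, 1900 and 1948 at E15.5, against 253.6, 124.4 and 31.0 at E14.5. Its arrays did not overlap between the ages either, with a rise of 3.63 log2 units (SE 0.37, adjusted p = 7.3e-08). Replicate 1 was the lowest E15.5 array and replicate 3 the lowest E14.5 array for both genes.

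Dsc2, the desmocollin found in most epithelia and in heart muscle, read 1715, 2954 and 3037 at E15.5, against 358.7, 391.7 and 105.6 at E14.5. Its rise was 3.24 log2 units (SE 0.29, adjusted p = 1.1e-08 by limma). Dsg2, the desmoglein that simple epithelia and heart muscle use, moved least among the cadherin members. Its arrays read 371.2, 401 and 446.6 at E15.5, against 238.5, 289.7 and 72.0 at E14.5, a rise of 1.15 log2 units (SE 0.33, adjusted p = 0.008). E14.5 replicate 3 weighed on this value. Without it Dsg2 gave 0.59 and was no longer called, while Dsc3, Dsg3 and Dsc2 gave 2.95, 2.93 and 2.68 and were still called. Without the lens-rich arrays Dsg3 gave 3.08, Dsc2 2.74 and Dsc3 2.48, so the order of these 3 genes depends on the arrays used.

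In the RefSeq annotation of GRCm38.p6 the desmosomal cadherin genes lie next to each other in the order Dsc3, Dsc2, Dsc1, Dsg1c, Dsg1a, Dsg1b, Dsg4, Dsg3 and Dsg2, with no other protein-coding gene between them. Dsg1b, a desmoglein-1 gene inside this row, also rose, by 3.46 log2 units (SE 0.37, adjusted p = 1.7e-07 by limma). It averaged 584 ± 220 (SD, n = 3) at E15.5, against 44.9 ± 44.5 at E14.5. Dsg1c, its neighbour, gave 0.50 (adjusted p = 0.47). The mouse desmoglein-1 genes are related copies, and whether signal crosses between Dsg1b and Dsg1c was not tested. Dsc1 and Dsg1a had no probe set that could be used, and that of Dsg4 did not pass the filter, so 3 of the 9 genes of the row were not tested.

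The cadherin members were left out of the promoter search beforehand, so nothing is said here of their promoters. Among the other members, the RefSeq table of gene starts used here holds Jup and Dsp. Both genes rose at this step, as most members did, and their 2 promoters are printed. Each runs from 250 bases before the gene's start to 50 bases after it, 5′ to 3′ on the gene's strand, in build GRCm38.p6. Capitals mark the GC box (GGGCGG, on either strand), the only searched motif found. The Jup promoter lies at chr11:100397741-100398040 on the minus strand and that of Dsp at chr13:38151044-38151343 on the plus strand.
Jup: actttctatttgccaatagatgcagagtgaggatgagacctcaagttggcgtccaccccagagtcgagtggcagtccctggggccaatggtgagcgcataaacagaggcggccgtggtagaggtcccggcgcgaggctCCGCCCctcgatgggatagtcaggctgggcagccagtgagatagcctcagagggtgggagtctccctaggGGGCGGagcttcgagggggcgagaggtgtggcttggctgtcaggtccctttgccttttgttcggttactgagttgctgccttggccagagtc
Dsp: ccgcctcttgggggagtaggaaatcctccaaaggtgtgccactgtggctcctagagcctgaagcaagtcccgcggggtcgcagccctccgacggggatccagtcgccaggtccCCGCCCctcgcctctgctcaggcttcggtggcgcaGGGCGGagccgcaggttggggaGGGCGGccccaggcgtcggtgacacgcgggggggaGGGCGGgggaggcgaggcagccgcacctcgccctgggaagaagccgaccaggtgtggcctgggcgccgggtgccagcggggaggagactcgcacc
The Jup window holds 2 GC boxes and the Dsp window 4. Of all 32851 promoters in the table, 35.7% hold at least 1. The share of G and C is 60.7% in the Jup window and 73.0% in the Dsp window, beside a median of 52.7% over all promoters. The grainyhead-like motif AACNGGTT (2.09% of all promoters) and the AP-1 motif TGANTCA (7.81%), searched on both strands, are not among the letters of these windows. No searched motif overlapped another.

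On the cytoplasmic side of the junction, Dsp read 3503, 5546 and 5893 at E15.5, against 978.3, 987.6 and 197.1 at E14.5. It rose by 3.03 log2 units (SE 0.35, adjusted p = 5.1e-07 by limma). Jup read 789.1, 1387 and 1546 at E15.5, against 331.2, 378.4 and 113.4 at E14.5, and rose by 2.21 (SE 0.31, adjusted p = 6.0e-06). As with the cadherin genes, E15.5 replicate 1 and E14.5 replicate 3 were the low arrays of their ages. The plakophilins, which cross-link desmoplakin into the plaque, rose less: Pkp1 by 1.22 (SE 0.21, adjusted p = 6.0e-05) and Pkp3 by 1.39 (SE 0.21, adjusted p = 1.4e-05). Pkp1 read 431, 778 and 783.7 at E15.5, against 232.7, 206.2 and 390.5 at E14.5. Its highest E14.5 array was replicate 3, the array on which 8 of the other members were lowest. Pkp3 read 433.4, 751.3 and 846.1 at E15.5, against 251.5, 241.1 and 223 at E14.5.

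The partner plakins parted at this step. Ppl read 1146, 2068 and 2231 at E15.5, against 193.9, 177.8 and 58.5 at E14.5, a rise of 3.60 log2 units (SE 0.29, adjusted p = 1.3e-09 by limma). Evpl read 495.7, 649.9 and 618.9 at E15.5, against 457.1, 301.3 and 480.5 at E14.5, a difference of 0.51 (95% interval 0.21 to 0.81, adjusted p = 0.0083). The arrays of Evpl did not overlap, but its difference stayed below 1 log2 unit. The log2 value of Ppl minus that of Evpl within an array was taken relative to the mean of E15.5. This balance was -0.37 to 0.27 on the E15.5 arrays, against -4.29 to -2.26 on the E14.5 arrays. Its mean was -0.57 at E17.5, -0.93 at P3, -0.39 at P7 and -0.37 at P14, with the P3 arrays, at -1.12 to -0.78, wholly below those of E15.5. On the arrays of P28 to 2 years it stood between -0.11 and 0.59.

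**Figure D2:**
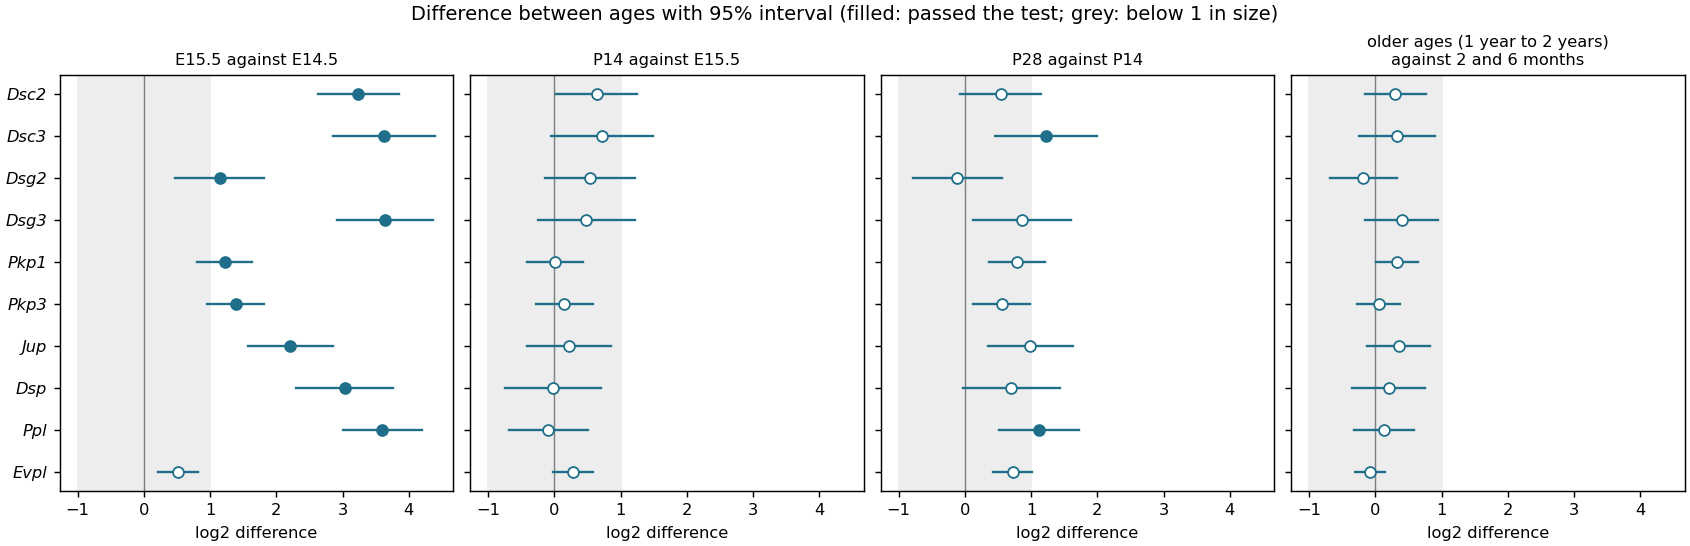
Log2 differences of the 10 genes for 4 comparisons of ages, with 95% intervals. Filled points passed the test. Differences of E15.5 against E14.5 ran from 0.51 for Evpl to 3.64 for Dsg3, while in the comparisons of P14 with E15.5 and of older with younger adults no point passed.

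Markers of other tissue moved with this step. Corneal epithelium markers summed to 21390 to 31160 on the E15.5 arrays, against 4774 to 8594 on the E14.5 arrays, with E15.5 replicate 1 and E14.5 replicate 3 the lowest of their ages, as for most members. Stroma markers summed to 39060 to 46620, against 1824 to 9059, and the 8 lens markers to 1281 to 1506, against 4079 to 60170. The 4 blood markers, which include the embryonic globin genes Hbb-y and Hbb-bh1, summed to 602.6 to 1148 at E15.5, against 22820 to 33180 at E14.5, and all 4 fell, with a median of -5.92 log2 units. Conjunctiva markers summed to 2604 to 5360 at E15.5, against 537.3 to 845.9 at E14.5. The part of these in the members' rise was not tested. With the lens-rich arrays left out, E14.5 kept replicate 1 alone, the array with the highest blood sum (33180), and was assumed to vary like the other ages, and 8 of 10 members were still called, with Ppl at 3.07, Dsc3 at 2.48 and Dsp at 2.29. The 5 markers of epidermis summed to 1064 to 1387 at E15.5, against 964.6 to 1050 at E14.5. Of the 2 tested, Krt1 (0.53) and Krt10 (0.18), 0 were called by limma. An unadjusted p under 0.05 was met by 1 of these and by 5969 of the 12998 genes.

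Other genes of cell contacts were taken from lists. Of the other desmosomal genes with a test, 2 of 5 rose at E15.5 against E14.5: Dsg1b, and Perp, a membrane protein of desmosomes that depends on the factor p63, at 1.93 (SE 0.30, adjusted p = 2.5e-05 by limma). Pkp2, the plakophilin of heart and simple epithelia, gave -0.23 (adjusted p = 0.51), and Pkp4 0.25 (adjusted p = 0.18). Among the other plakins 1 of 4 rose, Plec, the gene of the keratin linker plectin, at 1.79 (adjusted p = 1.3e-05). Dst, the gene of a plakin of hemidesmosomes, gave 0.88 and Eppk1 0.77, both below 1 log2 unit. The adherens junction list, whose products tie the cell border to actin, had 1 of 9 called: Cdh1, E-cadherin, at 1.55 (SE 0.35, adjusted p = 0.0011). Ctnnb1, the gene of beta-catenin, a close relative of plakoglobin, gave 0.20 (adjusted p = 0.27), with 2406 ± 185 (SD, n = 3) at E15.5, against 2096 ± 215 at E14.5.

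Of the cornified envelope genes 4 of 9 rose, Krtdap by 3.46, Scel by 2.53, Sprr1a by 1.62 and Tgm1, a protein cross-linking enzyme, by 1.33, while Ivl, the involucrin gene, gave 0.89 (adjusted p = 0.057 by limma). Among transcription factors of stratified epithelia 7 of 9 rose, with Ehf at 4.27, Klf5 at 2.42, Klf4 at 2.34, Grhl1 at 1.86, Trp63 and Grhl2 at 1.41 each, and Ovol1 at 1.18. The list medians were 2.62 for the members, 0.50 for the other desmosomal genes, 0.82 for the other plakins, 0.68 for the adherens junction genes, 0.89 for the cornified envelope genes and 1.41 for the transcription factors. These lists were not tested against each other.

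**Figure D3:**
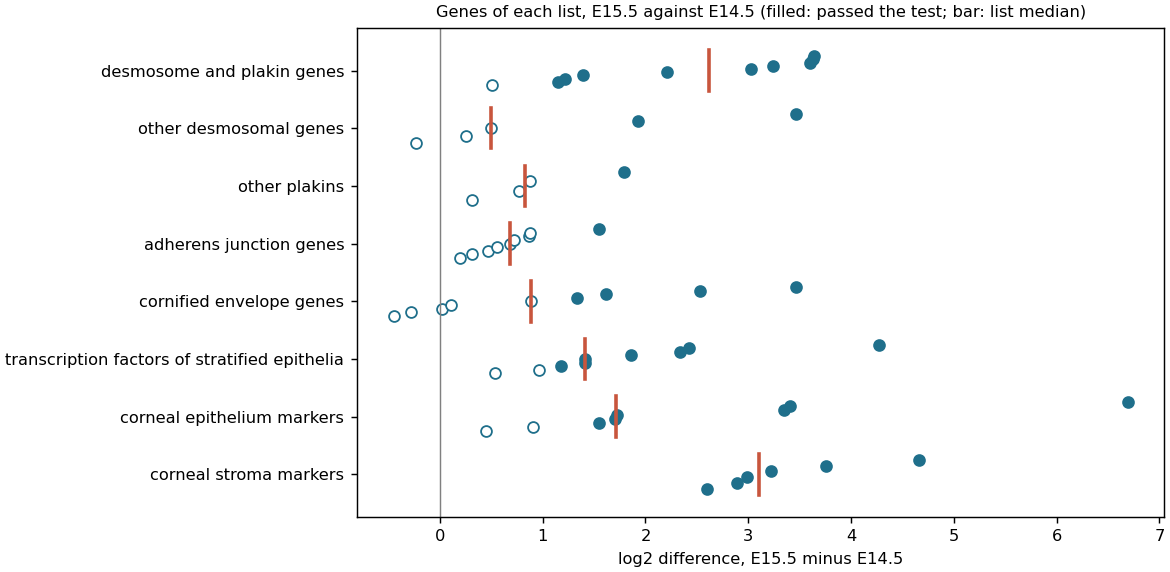
Log2 difference of E15.5 minus E14.5 for each tested gene of 8 lists, where filled points passed the test and the bar is the list median. The desmosome and plakin genes have their median at 2.62 and the adherens junction genes at 0.68, and all 6 corneal stroma markers rose too, with a median of 3.10.

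At E17.5 against E15.5 all 10 differences were below 0, from -0.29 for Evpl to -0.91 for Dsg3, with a median of -0.71 beside -0.07 over all genes. No member was called by limma, where 0.569% of all genes were. An unadjusted p under 0.05 was met by 6 members and by 1949 of the 12998 genes. Dsp read 2495, 3438 and 2117 at E17.5, against 3503, 5546 and 5893 at E15.5, a difference of -0.88 (95% interval -1.61 to -0.15, adjusted p = 0.22). Its arrays did not overlap, which held for 3 of the 10 members. The share of all genes without overlap was not counted here. The muscle-rich arrays, E17.5 replicates 1 and 3, were the lower ones for Dsp. This did not hold for every member, since Dsg3 read 1062, 846.2 and 798.5 on E17.5 replicates 1, 2 and 3. Without the muscle-rich arrays the median of the members was -0.40 and none was called. Without E15.5 replicate 1 both Pkp1 and Ppl were called lower, and with weights per array both Dsp and Ppl were.

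At P7 against P3 all 10 differences were positive, with a median of 0.54, and 1 of 10 rose, where 1.98% of all genes were called and 1.35% rose. This was Dsc3, which read 2005, 2827 and 1279 at P7, against 855.2, 857.8 and 742 at P3. The rise of 1.23 log2 units (SE 0.37, adjusted p = 0.035 by limma) was lost when any array of P3, or replicate 1 or 2 of P7, was left out, after quantile normalization and with an offset of 1. Corneal epithelium markers summed to 31580 to 40690 at P7, against 17770 to 18670 at P3, with 3 of 8 called higher, and vessel and heart markers to 559.7 to 642.4, against 1552 to 1762, with 1 of 3 called lower. Their part in the members' differences was not tested. At P14 against P7 no gene of the whole table was called by limma, and 0 of the members had an unadjusted p under 0.05, against 819 of all genes.

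The comparison of P14 with E15.5 spans the time in which the eyelids of the mouse close and open again. None of the 10 members was called by limma, where 5.19% of all genes were. An unadjusted p under 0.05 was met by 1 member and by 3939 of the 12998 genes. Differences ran from -0.09 for Ppl to 0.72 for Dsc3, with a median of 0.25. Dsp read 5177, 4424 and 4783 at P14, against 3503, 5546 and 5893 at E15.5, a difference of -0.02 (95% interval -0.75 to 0.71). Those arrays overlapped. For Dsc2 the P14 arrays, at 4428, 3368 and 3927, all lay above the E15.5 arrays, at 1715, 2954 and 3037, with a difference of 0.64 (95% interval 0.03 to 1.25, adjusted p = 0.14). Arrays did not overlap for 4 of the 10 members, and the share of all genes was not counted for this span. Over the same span 2 of 8 corneal epithelium markers rose, Aldh3a1 by 3.74 and Cldn7 by 1.48. Of the cornified envelope genes Ivl rose by 2.20 and Scel by 2.34, while Krtdap fell by 1.25. Of the other desmosomal genes, the other plakins and the adherens junction genes 0 were called by limma (1, 2 and 2 at an unadjusted p under 0.05), with Dst at -0.77 (adjusted p = 0.00088).

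After eyelid opening, at P28 against P14, 2 of 10 members rose and none fell, where 7.65% of all genes were called, 4.15% as higher and 3.5% as lower. Dsc3 read 5118, 6031 and 6318 at P28, against 2658, 2134 and 2608 at P14, a rise of 1.23 log2 units (SE 0.37, adjusted p = 0.013 by limma). Ppl read 3769, 3464 and 3491 at P28, against 1926, 1366 and 1659 at P14, a rise of 1.12 (SE 0.29, adjusted p = 0.0048). The arrays of both genes were well apart between the ages. Jup just missed the size threshold at 0.99 (adjusted p = 0.017), with 2743, 2283 and 3406 at P28, against 1692, 1183 and 1341 at P14. Dsg2 was the only member with a negative difference, -0.12 (95% interval -0.79 to 0.56), and the only one with overlapping arrays, where 46% of all genes had arrays that did not overlap. The calls of Dsc3 and Ppl were both lost after quantile normalization, with 0.96 and 0.74, and without P14 replicate 2, with 1.13 and 0.99. With all lens-rich arrays left out, that array among them, both were called, with 1.11 and 1.01, and so was Jup, with 1.01. All genes tested had a median shift of 0.11 at this step, against 0.00 after quantile normalization, and the share of higher calls among all calls was 54.2%, against 39.4% after it.

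Age and array set cannot be told apart between P14 and P28. Corneal epithelium markers summed to 54130 to 59220 at P28, against 35800 to 46110 at P14, and stroma markers to 15580 to 18400, against 28810 to 40060. The part of these markers in the members' differences was not tested. Of the 8 epithelium markers 1 was called higher, and Krt14 gave -0.64 (adjusted p = 0.18 by limma). Of the other desmosomal genes Pkp4 alone was called at this step, with 1.31 (SE 0.14, adjusted p = 5.8e-07 by limma). Of the 9 adherens junction genes 0 were called. An unadjusted p under 0.05 was met by 6 of these and by 5418 of the 12998 genes. Klf4 and Ehf rose at this step too, by 1.56 and 1.35. Of the 9 cornified envelope genes 1 rose and 1 fell: Tgm5, a protein cross-linking enzyme, rose by 1.87 (adjusted p = 7.7e-07), and Krtdap, which codes for a secreted protein of differentiating keratinocytes, fell by 4.22 (adjusted p = 1.6e-08).

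Balances between members were read within arrays. The log2 value of Dsg3 minus that of Dsg2, relative to the mean of E15.5, was -2.80 to -2.32 on the E14.5 arrays. From E15.5 to P14 it stood between -0.74 and 0.32 relative to that mean, and from P28 to 2 years between -0.21 and 1.45. For Dsc3 minus Dsc2 the E15.5 arrays, at -0.20 to 0.10, overlapped those of E14.5, at -0.80 to 0.26. On the arrays of P28 to 2 years the Dsc3 balance stood between 0.64 and 1.18, against -0.80 to 0.48 on those of E14.5 to P14. The later arrays thus lay wholly above the earlier ones for Dsc3 against Dsc2, with the array sets parting at the same place. These balances are descriptions and were not tested.

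**Figure D4:**
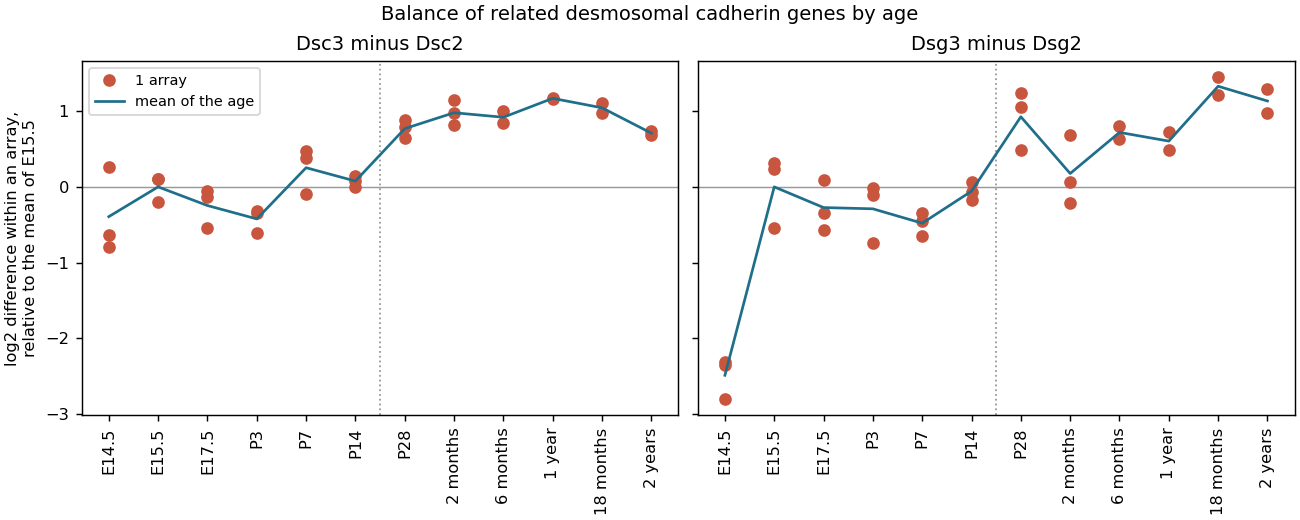
Log2 value of Dsc3 minus Dsc2 (left) and of Dsg3 minus Dsg2 (right) within each array, relative to the mean of E15.5, by age. Points are arrays, lines join age means and the dotted line parts the array sets. The mean for Dsg3 minus Dsg2 was 1.33 at 18 months and -2.49 at E14.5.

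At 2 months against P28 all 10 differences were negative, from -0.03 for Dsg2 to -0.78 for Dsg3. None was called by limma, where 2.12% of all genes were. An unadjusted p under 0.05 was met by 2 members and by 4902 of the 12998 genes. Dsg3 read 2644, 2406 and 2526 at 2 months, against 4156, 4598 and 4299 at P28, without overlap (95% interval of the difference -1.51 to -0.05, adjusted p = 0.11). Dsc2 read 3824, 3257 and 3621 at 2 months, against 5459, 5794 and 5726 at P28, also without overlap (difference -0.67, adjusted p = 0.099). Arrays did not overlap for 7 of the 10 members. The share of all genes without overlap was not counted at this step. Corneal epithelium markers summed to 45660 to 50150 at 2 months, against 54130 to 59220 at P28. Endothelium markers summed to 2534 to 3395, against 783.8 to 1166, with 3 of 4 called higher. The part of these markers in the members' differences was not tested. At the remaining steps no member was called by limma and none had an unadjusted p under 0.05: P3 against E17.5, 6 months against 2 months, 1 year against 6 months, 18 months against 1 year, and 2 years against 18 months. The shares of all genes called there were 1.89%, 1.25%, 0.208%, 0.854% and 0.446% in that order.

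Ageing was read by setting the average of the ages from 1 year to 2 years against that of 2 and 6 months. No member was called by limma, where 0.677% of all genes were. An unadjusted p under 0.05 was met by 1 member and by 2476 of the 12998 genes. Differences ran from -0.18 for Dsg2 to 0.40 for Dsg3, and the older and younger arrays overlapped for every member, as they did in all but 2.5% of all genes. Pkp1 had the lowest unadjusted p. It read 1016, 1193, 1075, 1260, 1347 and 1248 on the arrays of 1 year to 2 years, against 766.2, 817.8, 984.2, 988.4 and 1091 on those of 2 and 6 months, a difference of 0.33 (95% interval 0.01 to 0.65, adjusted p = 0.25). Only the highest of the younger arrays, from 6 months, lay within the range of the older ones. Jup read 2305 to 4255 on the older arrays with 2 years replicate 1 the highest, against 1941 to 2955 on the younger ones (difference 0.35, adjusted p = 0.46). At 2 years against 2 months, a narrower view, Dsg3 gave 0.93 (95% interval 0.11 to 1.74, adjusted p = 0.15 by limma). None of the 10 was called, where 2.83% of all genes were. An unadjusted p under 0.05 was met by 3 members and by 3000 of the 12998 genes. The 95% intervals of the broader comparison reached at most 0.95, for Dsg3.

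Likeness between genes over the 12 age means is given as a description, since all points come from the same arrays. The 45 pairs of members had Pearson r between 0.721, for Dsg2 and Evpl, and 0.996, for Dsc2 and Dsg3, with a median of 0.956. Over the 6 ages of P28 to 2 years alone the median was 0.625, and 12 pairs were below 0, each of them with Dsg2 or Evpl, down to -0.612 for Dsc3 and Dsg2. Over the 6 ages of E14.5 to P14 the pairs had r from 0.840 to 0.997. Dsc2 and Dsg3 were each other's closest gene among all genes tested with a named symbol, and so were Dsp and Ppl (r = 0.993). The closest to Dsc3 were Serpinb5 (0.997), a serpin of epithelia, Capn1 (0.997) and Crybg1 (0.996). Jup lay closest to Rab3d (0.995), St14, a membrane serine protease (0.993), and Cdh1 (0.991). Pkp1 had Phyhip, Spint1 and Nectin4 (0.988, 0.988 and 0.987), and Pkp3 had Trim29, Plet1 and Sdc1, the syndecan of epithelia (0.991, 0.990 and 0.989). Ehf, an Ets factor of epithelia, came second for Ppl after Dsp, with 0.992. Evpl was closest to Bspry, Gjb5, a connexin gene, and Plekhg3 (0.991, 0.988 and 0.987). For Dsg2 the closest were Mt2, Tgoln1 and Trpv4, at 0.952, 0.948 and 0.946.

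The isolated layers, with 1 array each, allow no test, and they differ in age and isolation as well as in tissue. All 10 members had the higher value in epithelium of P28. Dsc2 read 4442 in epithelium against 800 in stroma, and Dsg3 3306 against 705.1, and these were the 2 members at least 4-fold apart on the log2 scale, at 2.45 and 2.20. Of 11107 genes above the array median in either layer, 0.576% were at least 4-fold higher in epithelium. Dsc3 read 4188 against 1205, Ppl 2325 against 684, Dsp 7313 against 2721 and Jup 2075 against 1157, which gave 1.78, 1.74, 1.42 and 0.83. Evpl (1133 against 720), Dsg2 (586 against 354.9), Pkp1 (910.3 against 693.8) and Pkp3 (934.1 against 770.7) differed by 0.27 to 0.70. The median difference of the members was 1.13, beside 0 over the genes compared.

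**Figure D5:**
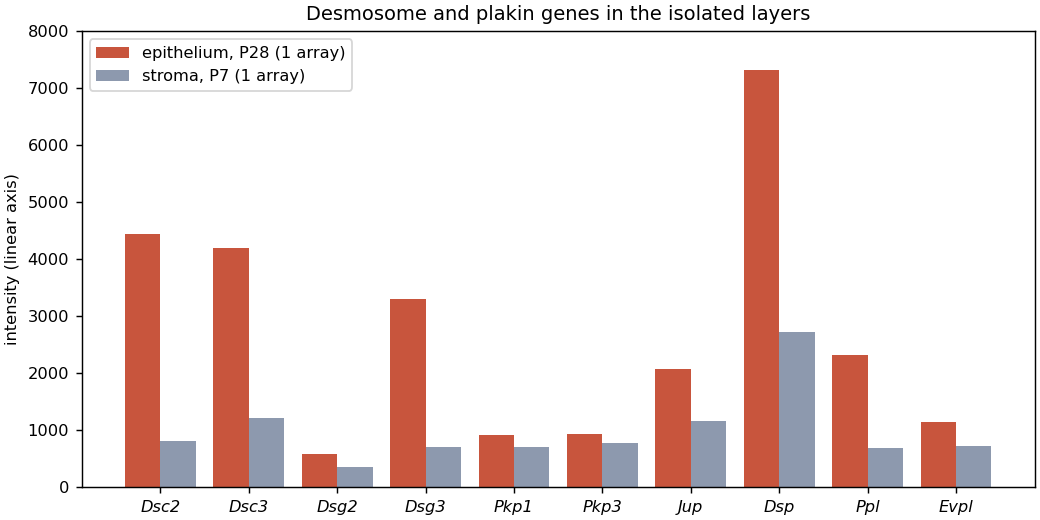
Intensity (linear axis from 0) of the 10 genes in isolated epithelium of P28 and isolated stroma of P7, with 1 array each and no error bars. Dsp read 7313 in epithelium and 2721 in stroma, and Pkp3 934.1 and 770.7.

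The stroma array also carried RNA of other tissues. Krt12 read 15150 in epithelium and 2185 in stroma, and Krt5 9817 and 4078, while Krt14 read 2244 and 2673. The lens crystallin genes Crygs and Cryba1 read 279.3 and 439.5 in epithelium, against 9893 and 10460 in stroma. Krt10, a keratin of epidermis, read 343.9 in epithelium and 2531 in stroma, and the muscle gene Tnnt3 210.2 and 3538. Other markers of these lists were near equal, such as Krt2 of epidermis (232 and 203.6) and Ckm of muscle (568.8 and 621.8). At least 4-fold higher in stroma were 7 of 8 lens, 3 of 6 muscle and 1 of 5 epidermis markers. Kera, the keratocyte marker, read 158.2 in epithelium and 3433 in stroma. The part of these tissues in the stroma values of the members was not tested. The lowest intensities of the layer arrays were 41.8 in epithelium and 42.6 in stroma, and with that lowest value subtracted the count of members at least 4-fold apart was still 2. In whole cornea the mean at P28 was above that at P7 for every member except Dsg2, which averaged 560 ± 144 at P28 and 610 ± 151 at P7 (SD, n = 3 each).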

How the data were processed

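Whole mouse cornea at 12 ages and 2 isolated layers had been measured on Affymetrix gene arrays, and the deposited values are PLIER intensities made by the authors with Affymetrix Expression Console 1.1, per the submitters' processing notes. Of 35557 probe sets, 21789 carried exactly 1 gene symbol, 1621 several and 12147 none. From the deposited intensities log2(value + 16) was computed. Probe sets that exceeded the array median at least 2 times among the 32 arrays of whole cornea were kept (14329), and the one with the highest mean stood for its gene (12998 genes). limma 3.58.1 in R 4.3.3 fitted 1 mean per age over the 32 arrays (functions lmFit and eBayes; degrees of freedom were 20 residual and 4.1 prior), and p-values were adjusted by Benjamini-Hochberg over all genes. The number of arrays, 2 or 3 an age, limits the precision. Pearson's r between arrays of one age was 0.879 to 0.985. The fit was run on simulated data with independent noise and shifts larger than the threshold. That run does not cover differences near the threshold, or RNA of other tissues that moves many genes of an array. The layers, with 1 array each, were compared by their log2 values. Genes named are the members, the called genes and main members of the lists, and the 3 genes most like each member by Pearson's r over age means. At E15.5 against E14.5, of the marker lists not counted above, 6 of 8 genes of corneal epithelium, 1 of 4 of endothelium and 2 of 4 of conjunctiva rose, and 6 of 8 of lens, 4 of 4 of blood and 1 of 4 of endothelium fell. No gene of the lists of skeletal muscle (6 tested), retina (5) and vessel and heart (3) was called by limma (0 at an unadjusted p under 0.05). The members and all lists were chosen with earlier results of these data known. Alternatives covered the offset, filter, normalization, moderation, array weights, thresholds, replicate block and left-out arrays. Replicates 2 and 3 of 2 months carry the identifiers 1B and 1A in the labels, which do not say whether they are 1 sample. They were kept as separate arrays, and averaging them to 1 array was a further alternative.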

Additional observations from a re-analysis of the deposited data

How the results depend on the processing

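The 9 members called at E15.5 against E14.5, the 10 called over the 12 ages and the absence of calls at P14 against E15.5 and with ageing stayed within 1.5 times of these counts under every alternative that was run for them. At P28 against P14 the count of 2 went to 0 after quantile normalization, to 6 with no minimum difference and to 0 with a minimum of 2 log2 units. The total of 12 calls over the 11 steps went to 6 with that minimum. Dsg2, Pkp1 and Pkp3, at 1.15, 1.22 and 1.39, lost their calls at E15.5 against E14.5 there. In the layers the count of 2 members at least 4-fold apart was 5 at 2-fold and 0 at 8-fold. For the minimum difference and the fold the threshold itself sets the change, and for quantile normalization the cause was not tested. Leaving out 1 array at a time gave 8 to 9 calls at E15.5 against E14.5, 0 to 0 at P14 against E15.5, 0 to 3 at P28 against P14, 0 to 0 with ageing, 10 to 10 over the 12 ages and 10 to 14 over the 11 steps. The low end at P28 against P14 came from P14 replicate 2. For single members, 631 of 650 values under other settings kept their direction and their side of the threshold, 11 lost a call, 8 gained one and 0 turned round. A replicate block on the numbers in the labels left the counts at 9, 0, 2, 0, 10 and 12. Arrays of the same number deviated together (every r over 0.1) in 1 of 28 pairs of ages. This rule is coarse, so it cannot show whether arrays of the same number were handled together. Dsg2 at E15.5 against E14.5 also lost its call with an offset of 64 (0.94), with weights per array (0.63) and, unchanged in size, in a fit of the compared ages alone.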
